A study of Saccharomyces cerevisiae BY4741 with 66 samples.

Results

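FAS1 (YKL182W) and FAS2 (YPL231W) encode the beta and alpha subunits of the cytosolic fatty acid synthase of Saccharomyces cerevisiae. They were chosen by name, as the 2 genes of this enzyme among the 6605 features of each table. FAS1 lies on the plus strand of chromosome XI (100671 to 106826) and spans 6156 nt, or 2051 codons. FAS2 lies on the plus strand of chromosome XVI (108652 to 114315) and spans 5664 nt, or 1887 codons. Both sets of coordinates are those of the deposited tables and are the same in the RefSeq annotation of the R64 assembly. For each gene the data give its ribosome footprints in the total translatome of every strain and its footprints on ribosomes pulled down with a GFP-tagged protein.

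The fatty acid synthase makes saturated long-chain fatty acids from acetyl-CoA and malonyl-CoA in a closed barrel built of several copies of each subunit. The alpha subunit carries the acyl carrier protein, the ketoacyl reductase, the ketoacyl synthase and the phosphopantetheine transferase. The beta subunit carries the acetyl transferase, the enoyl reductase, the dehydratase and most of the malonyl/palmitoyl transferase (MPT). The MPT domain is completed by both proteins, from the carboxy-terminal end of the beta subunit and the amino-terminal end of the alpha subunit.

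The study used selective ribosome profiling, in which ribosomes that carry a nascent chain bound by a tagged protein are isolated through the tag. Their footprints are set beside those of all ribosomes in a total of the same strain. Of its 66 libraries, 50 came with tables of values per gene: 25 immunoprecipitations (IPs) and 25 totals, from 15 strains, 10 of them with 2 replicates of both fractions and 5 with 1. Cells were grown at 30 °C, collected by filtration, frozen and milled. Totals were taken through a sucrose cushion, and IPs were made with a GFP antibody on beads.

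All 15 strains were described as BY4741 and expressed a GFP-tagged protein, so no library came from an untagged strain. FAS1dMPT-GFP carried a GFP-tagged FAS1 that lacked its last 1165 base pairs before the stop codon. FAS1-GFP FAS2dMPT carried a GFP-tagged full-length FAS1 and a FAS2 that lacked its first 282 base pairs. Both MPT deletion strains were grown with added fatty acids, so deletion and medium cannot be told apart. FAS1-GFP and FAS2-GFP, with full-length subunits, were grown in YPD, as were GUS1-GFP, MES1-GFP, ARC1-GFP, PFK1-GFP, PFK2-GFP, SUI2-GFP, SUI3-GFP and GCD11-GFP. TRP2-GFP and TRP3-GFP were grown in SD-trp and CPA1-GFP in SD-arg. TRP3-GFP, CPA1-GFP, SUI2-GFP, SUI3-GFP and GCD11-GFP had 1 replicate. The 17 totals from YPD served as the reference for totals. Whether replicates were separate cultures is not stated in the labels, so each p-value reflects the spread among libraries and nothing wider.

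The FAS1 deletion removed 1165 bp, or 18.9% of the gene, from within codon 1663 to the end of codon 2051, which by length alone would lower its summed footprints by 0.30 on the log2 scale. The FAS2 deletion removed 282 bp, or 4.98% of the gene and codons 1 to 94, worth 0.07 on the same scale.

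Values are RPM, the reads of a gene per 1000000 reads over all nuclear genes. Tests across genes scaled these further, by a trimmed mean between libraries. As alternatives, "equal totals" keeps the RPM as printed here, and "without further scaling" uses the RPM as deposited, of which the listed genes made up 37.8% to 96.5% of a library. Most low values of a library were multiples of 1 step, taken as 1 read, which put the depth at 0.544 to 55.9 M (mega) reads per library. By the same step FAS1 rested on at least 1816 reads (PFK2-GFP IP 1), and FAS2 on at least 1019 reads (FAS1-GFP FAS2dMPT total 1). These read numbers are estimates, since only 60.2% to 87.1% of the low values were whole multiples of the step.

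Several libraries did not carry the marker genes of BY4741, which is a MATa strain. In the libraries FAS1-GFP IP 1 and total 1, FAS2-GFP IP 1 and both totals, FAS1-GFP FAS2dMPT IP 1 and total 1, and both TRP2-GFP totals, the MATalpha-specific genes summed to 787 to 2400 RPM and the MATa-specific genes to 3.81 to 82.3 RPM. The libraries labelled FAS1-GFP IP 2 (100 RPM of MATa-specific and 721 RPM of MATalpha-specific genes) and FAS2-GFP IP 2 (203 and 668 RPM) and both TRP2-GFP IPs held both sets. PFK1-GFP total 1, one of the 17 YPD totals, held 808 RPM of MATa-specific and 119 RPM of MATalpha-specific genes. All 4 FAS1dMPT-GFP libraries were MATa by these genes, so the comparison of this strain with FAS1-GFP also sets MATa against mostly MATalpha libraries. MATalpha and MATa totals also differed in MET17, which BY4741 lacks, and LYS2, which it keeps. FAS1-GFP total 1 had 913 RPM of MET17 and 0.112 RPM of LYS2, and FAS1dMPT-GFP total 1 had 0.0754 and 348 RPM. The part of mating type or of this wider strain difference in any comparison was not tested. FAS1-GFP total 2 was MATa by these genes (943 RPM MATa-specific and 3.82 RPM MATalpha-specific), so the IP and total labelled replicate 2 of that strain did not match. In FAS1-GFP FAS2dMPT, replicate 2 was MATa in both fractions and replicate 1 was not. The IP of replicate 1 held 82.3 RPM of MATa-specific genes, against 9.48 RPM in its total. For that replicate 2, the library labelled IP had 94.3% of its reads over listed genes and the library labelled total 88.5%, the reverse of the other pairs. The IP results of FAS1-GFP, FAS2-GFP and FAS1-GFP FAS2dMPT are given with and without their replicate 2, and those against other complexes also without TRP2-GFP.

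In YPD totals the 2 subunits were among the genes with the most footprints, and their levels per length were nearly equal. FAS1 averaged 3441 ± 679 RPM (SD, n = 17), with 2336 RPM the lowest value, 3408 RPM the median and 5137 RPM the highest. FAS2 averaged 3021 ± 644 RPM (SD, n = 17), with 2299 RPM the lowest, 2870.2 RPM the median and 4516 RPM the highest. Ranked among all nuclear genes by RPM, FAS1 stood between 16th and 58th and FAS2 between 22nd and 61st in these 17 libraries. These ranks use footprints summed over a gene and so favour long genes such as these. No rank per length was made. They took 0.344% ± 0.0679 (FAS1) and 0.302% ± 0.0644 (FAS2) of the reads over genes (SD, n = 17). Per kilobase of gene, the level was 559 ± 110 RPM for FAS1 and 533 ± 114 RPM for FAS2 (SD, n = 17). The FAS2/FAS1 ratio per length was 0.961 ± 0.127 (SD, n = 17), between 0.695 and 1.19. The ratio compares 2 genes within a library and does not depend on how libraries are scaled. A footprint level holds mRNA amount and ribosome load together, and these cannot be told apart here. The ratio also differed between the 2 layouts of the deposited tables, which differ in how minus-strand genes are written although both subunits lie on the plus strand. Its median was 1.00 in the 6 YPD totals of one layout and 0.837 in the 11 of the other, on RPM.

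**Figure D1:**
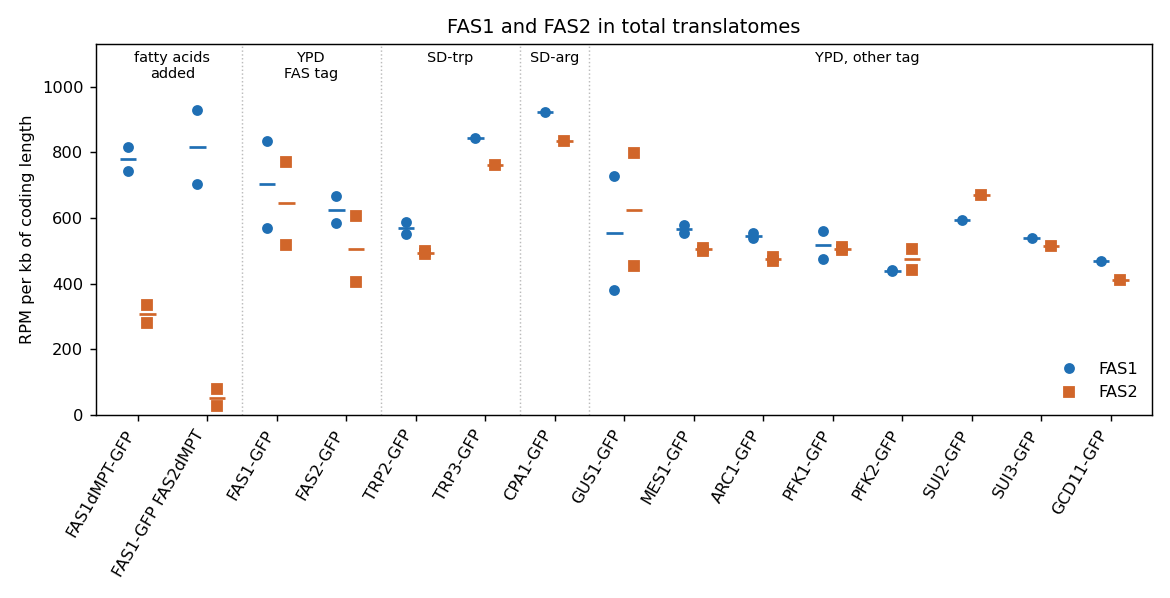
FAS1 (circles) and FAS2 (squares) in the totals of the 15 strains, in RPM per kilobase of the gene left in the strain. Points are libraries and bars are strain means. FAS2 lies far below FAS1 in the totals of the 2 MPT deletion strains, at 334 and 281 RPM per kilobase in FAS1dMPT-GFP and 25.6 and 79.2 in FAS1-GFP FAS2dMPT.

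The level of each subunit was then followed strain by strain. In the totals of FAS1dMPT-GFP, FAS1 stood at 3708 and 4074 RPM and FAS2 at 1890.05 and 1589 RPM. In those of FAS1-GFP FAS2dMPT, FAS1 stood at 5711 and 4328 RPM and FAS2 at 138 and 426 RPM. FAS2 was thus below FAS1 in all 4 totals of the deletion strains, and below its lowest YPD total. Among the YPD strains with a tagged FAS subunit, the totals of FAS1-GFP had 3507 and 5137 RPM of FAS1 and 2933 and 4367 RPM of FAS2. The totals of FAS2-GFP had 4103 and 3594 RPM of FAS1 and 3432 and 2299 RPM of FAS2. Replicate 2 of FAS2-GFP held the lowest FAS2 level of the 17 YPD totals. Of the aminoacyl-tRNA synthetase complex strains, GUS1-GFP had 4471 and 2336 RPM of FAS1 and 4516 and 2563 RPM of FAS2. MES1-GFP had 3563 and 3408 RPM of FAS1 and 2887 and 2824 RPM of FAS2. ARC1-GFP had 3315 and 3406 RPM of FAS1 and 2660.05 and 2721 RPM of FAS2. The 2 GUS1-GFP totals differed most, and both subunits were higher in its replicate 1.

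Of the phosphofructokinase strains, PFK1-GFP had 3452 and 2930.05 RPM of FAS1 and 2897 and 2843 RPM of FAS2. PFK2-GFP had 2691 and 2716 RPM of FAS1 and 2507 and 2870.2 RPM of FAS2. PFK2-GFP had the lowest FAS1 mean of the 15 strains. The single totals of the translation factor 2 strains held 3663 RPM of FAS1 and 3792 RPM of FAS2 in SUI2-GFP, 3324 and 2907 RPM in SUI3-GFP, and 2884 and 2336 RPM in GCD11-GFP. In SD-trp, the TRP2-GFP totals held 3388 and 3614 RPM of FAS1 and 2778 and 2819.9 RPM of FAS2, and the TRP3-GFP total 5187 and 4307 RPM. The CPA1-GFP total, in SD-arg, held 5678 RPM of FAS1 and 4726 RPM of FAS2. By strain mean, CPA1-GFP and TRP3-GFP were therefore first and second for both subunits, each on 1 library.

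Below these, the order for FAS1 ran FAS1-GFP FAS2dMPT, FAS1-GFP, FAS1dMPT-GFP, FAS2-GFP, SUI2-GFP, TRP2-GFP, MES1-GFP, GUS1-GFP, ARC1-GFP, SUI3-GFP, PFK1-GFP, GCD11-GFP and PFK2-GFP. Wherever neighbours in that order had 2 libraries each, their values overlapped. The order for FAS2 ran SUI2-GFP, FAS1-GFP, GUS1-GFP, SUI3-GFP, PFK1-GFP, FAS2-GFP, MES1-GFP, TRP2-GFP, ARC1-GFP, PFK2-GFP, GCD11-GFP, FAS1dMPT-GFP and FAS1-GFP FAS2dMPT. Of the neighbours with 2 libraries each, MES1-GFP and TRP2-GFP, TRP2-GFP and ARC1-GFP, and the 2 deletion strains did not overlap. The first of these gaps lay between 2824 RPM in MES1-GFP replicate 2 and 2819.9 RPM in TRP2-GFP replicate 2.

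In the totals of both MPT deletion strains, FAS2 footprints were fewer than in YPD totals and FAS1 footprints were not detectably changed. FAS2 averaged 1739.6 ± 213 RPM in FAS1dMPT-GFP totals (SD, n = 2), against 3021 ± 644 RPM in YPD totals (SD, n = 17). The difference was −1.11 ± 0.22 (SE) in log2(scaled RPM + 1), 95% interval −1.57 to −0.64, or 0.465 times the YPD level, with an adjusted p of 0.00183 in limma over 5004 genes. In this comparison 6.12% of the genes passed the call rule of an adjusted p below 0.05 and a log2 change of at least 1. Neither deletion-strain total overlapped the YPD totals for FAS2. The call was lost under 2 of the alternative treatments of the data and without 1 of the 2 totals: the difference was −0.64 (adjusted p = 0.0927, limma) without further scaling, −0.77 with equal totals, which is short of the size needed, and −0.97 (adjusted p = 0.129) without FAS1dMPT-GFP total 2.

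FAS2 averaged 282 ± 204 RPM in FAS1-GFP FAS2dMPT totals (SD, n = 2), which was −3.94 ± 0.22 (SE) in log2(scaled RPM + 1) against YPD totals, or 0.0652 times their level (95% interval −4.40 to −3.48, adjusted p = 1.32e-11, limma), where 8.01% of the genes were called. The share of FAS2 that was deleted accounts by length for 0.07 of this. FAS2 ranked 959th and 430th by RPM in replicates 1 and 2 of FAS1-GFP FAS2dMPT, against a median rank of 45 in YPD totals. The 2 totals of this strain differed by a larger factor in FAS2 than any other replicate totals, and both lay below all YPD totals. Total 2 is from the replicate whose IP and total labels are in doubt, and the library labelled IP 2 held 37.1 RPM of FAS2. All values for the totals of this strain are given as labelled.

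FAS1 averaged 3891 ± 259 RPM in FAS1dMPT-GFP totals and 5019 ± 978 RPM in FAS1-GFP FAS2dMPT totals (SD, n = 2 each), against 3441 ± 679 RPM in YPD totals (SD, n = 17). Its differences on the same scale were −0.13 ± 0.16 (95% interval −0.47 to 0.20, adjusted p = 0.635, limma) and 0.22 ± 0.16 (−0.11 to 0.56, adjusted p = 0.365, limma). The sign for FAS1dMPT-GFP turned to 0.33 without further scaling and 0.20 with equal totals, and its interval includes the −0.30 that the deleted length alone would give.

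The ratio of the 2 subunits gave the same picture without any scaling between libraries. FAS2/FAS1 on RPM was 0.510 and 0.390 in FAS1dMPT-GFP totals and 0.0241 and 0.0984 in FAS1-GFP FAS2dMPT totals, against 0.640 to 1.10 (median 0.839) in YPD totals. Neither strain overlapped the YPD totals. By length alone the FAS1 deletion would change FAS1 by −0.30 on the log2 scale, which raises this ratio. Per length the ratio was 0.449 and 0.344 in FAS1dMPT-GFP totals, against 0.695 to 1.19 in YPD totals. The test used RPM without regard to length. The mean log2 ratio was −0.98 against YPD in FAS1dMPT-GFP (0.509-fold) and −4.17 in FAS1-GFP FAS2dMPT (0.0556-fold). Both had a two-sided exact permutation p of 0.00585, the smallest that 2 against 17 libraries can give, and 0.0117 after Benjamini-Hochberg adjustment over the 8 ratio comparisons. With 1 value per strain the smallest possible p is 0.0909, and with only the 6 YPD totals of the layout that the deletion strains share it is 0.0357, so neither alternative can pass after adjustment. The log2 differences were −0.98 and −4.17 under the first and −1.10 and −4.30 under the second.

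Neither subunit passed the test in SD-trp totals or in YPD totals with a FAS tag. FAS1-GFP total 1, both FAS2-GFP totals and both TRP2-GFP totals were MATalpha by the marker genes. The YPD totals with another tag were mainly MATa. FAS1-GFP total 2 (943 RPM of MATa-specific genes) and the TRP3-GFP total (1046 RPM) were MATa, and the latter had the most FAS1 and FAS2 of the SD-trp totals. Medium and tag therefore went with the marker pattern in large part but not wholly, and the part of each was not tested. In SD-trp totals FAS1 had 3388, 3614 and 5187 RPM and FAS2 2778, 2819.9 and 4307 RPM, all within the range of the YPD totals except the FAS1 value of TRP3-GFP. The log2 differences against YPD were 0.26 ± 0.14 for FAS1 (adjusted p = 0.602, limma) and 0.15 ± 0.19 for FAS2 (adjusted p = 0.804, limma), in a comparison that called 0% of the genes with limma, while 412 had an unadjusted p below 0.05. The FAS2/FAS1 log2 ratio differed by −0.11 (two-sided exact permutation p = 0.292, also after adjustment), with overlapping groups. The 4 YPD totals of strains with a FAS tag held 4085 ± 749 RPM of FAS1 and 3258 ± 873 RPM of FAS2, against 3243 ± 542 and 2948 ± 582 RPM in the 13 with another tag (SD). The log2 differences were 0.15 ± 0.11 (adjusted p = 0.732) and −0.06 ± 0.14 (adjusted p = 0.932) in limma, with 0.386% of the genes called. The ratio differed by −0.21 on the log2 scale (two-sided exact permutation p = 0.0714, adjusted 0.114). The sign for FAS2 turned to 0.13 both without further scaling and with equal totals.

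Footprints of the alpha subunit dominated the IPs of the tagged beta subunit. In FAS1-GFP IPs FAS2 reached 169066 and 312753 RPM, against 2933 and 4367 RPM in FAS1-GFP totals. It took 16.9% and 31.3% of all reads over genes in the 2 IPs and was the most abundant gene in both. FAS2 IP over total was 57.6 and 71.6 in replicates 1 and 2, against 0.702 to 2.10 (median 1.35) in the 17 pairs from strains with tags on other complexes. Ordered by IP over total within each pair, FAS2 was 5th of 5000 features and 9th of 5081.
The log2 difference of FAS2 between FAS1-GFP IPs and totals was 6.20 ± 0.62 (SE), 95% interval 4.92 to 7.47, with an adjusted p of 1.39e-06 in limma. FAS2 was the only gene called, which is 0.0195% of the 5137 tested, while 1125 genes had an unadjusted p below 0.05. That it stood alone depended on the fit: 556 genes were called with a replicate block, 298 with a weight for each library and 2549 without further scaling, with FAS2 among them each time. Set against the mean IP over total of the 6 replicated strains with tags on other complexes, the difference was 5.95 ± 0.67 (adjusted p = 1.44e-05, limma, with 0.0389% of the genes called). Without the replicate 2 pair, whose marker genes did not match, the difference between IP and total was 5.91 (adjusted p = 0.00432, limma) and against the other complexes 5.66 (adjusted p = 0.0150, limma). Without TRP2-GFP among the other complexes it was 5.98 (adjusted p = 8.35e-05, limma).

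FAS1 itself, which carries the tag in this strain, differed far less between the fractions. It had 6670.5 and 7132 RPM in FAS1-GFP IPs, against 3507 and 5137 RPM in FAS1-GFP totals. The 2 groups did not overlap, and the log2 difference of 0.89 ± 0.22 (95% interval 0.45 to 1.33) had an adjusted p of 0.119 in limma (0.99, adjusted p = 0.917, without the replicate 2 pair). Reads of FAS2 take a large part of the IPs and so lower the RPM of every other gene there. With FAS2 left out of the library totals, FAS1 had 8028 and 10378 RPM in FAS1-GFP IPs, against 3518 and 5160 RPM in FAS1-GFP totals. On that scale the IP over total of FAS1 was 2.28 and 2.01, the first and second highest of the 25 pairs, followed by 1.60 in GCD11-GFP. On the RPM used elsewhere it was 1.90 and 1.39, the first and the 10th highest. This recalculation was chosen after its values were seen and has no test. Ordered by IP over total within each FAS1-GFP pair, FAS1 was 341st of 5000 features and 956th of 5081, so many genes stood higher. Without further scaling the log2 difference of FAS1 turned to −0.21, where the listed genes made up 37.8% and 57.7% of the FAS1-GFP IPs, against 81.3% and 94.9% of the FAS1-GFP totals.

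With the tag on the alpha subunit, FAS2 was in excess in both IPs by a smaller factor, and no excess of FAS1 was detectable. In FAS2-GFP IPs FAS2 had 13139 and 10032 RPM, against 3432 and 2299 RPM in FAS2-GFP totals. Its IP over total was 3.83 and 4.36, above the 0.702 to 2.10 of the strains with tags on other complexes. Ordered by IP over total within each pair, FAS2 was 169th of 5231 features and 329th of 5194, so many genes stood higher. The log2 difference was 1.68 ± 0.62 (95% interval 0.41 to 2.95, adjusted p = 0.0718, limma), in a comparison that called 4.89% of 5137 genes. FAS2 in this comparison passed when both libraries of FAS1-GFP FAS2dMPT replicate 2 were left out (1.68 ± 0.29, adjusted p = 0.0195, limma). It also passed with a replicate block (1.68, adjusted p = 0.0440) and with a weight for each library (adjusted p = 0.0161). Against the other complexes the difference was 1.44 ± 0.67 (adjusted p = 0.481, limma, with 0.0389% of the genes called), and 1.47 (adjusted p = 0.516) without TRP2-GFP. Without the FAS2-GFP replicate 2 pair, whose IP held both sets of marker genes, FAS2 differed by 1.61 between IP and total (adjusted p = 0.377, limma) and by 1.36 against the other complexes (adjusted p = 0.964), and FAS1 by 0.31 between IP and total (adjusted p = 0.610).

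FAS1 had 6383 and 5553 RPM in FAS2-GFP IPs, against 4103 and 3594 RPM in FAS2-GFP totals. Its IP over total of 1.56 and 1.54 lay within the 0.823 to 1.60 of the strains with tags on other complexes. The log2 difference was 0.28 ± 0.22 (95% interval −0.16 to 0.72, adjusted p = 0.343, limma), and −0.27 without further scaling. The difference in IP over total of FAS2 between the 2 tagged strains was not tested.

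**Figure D2:**
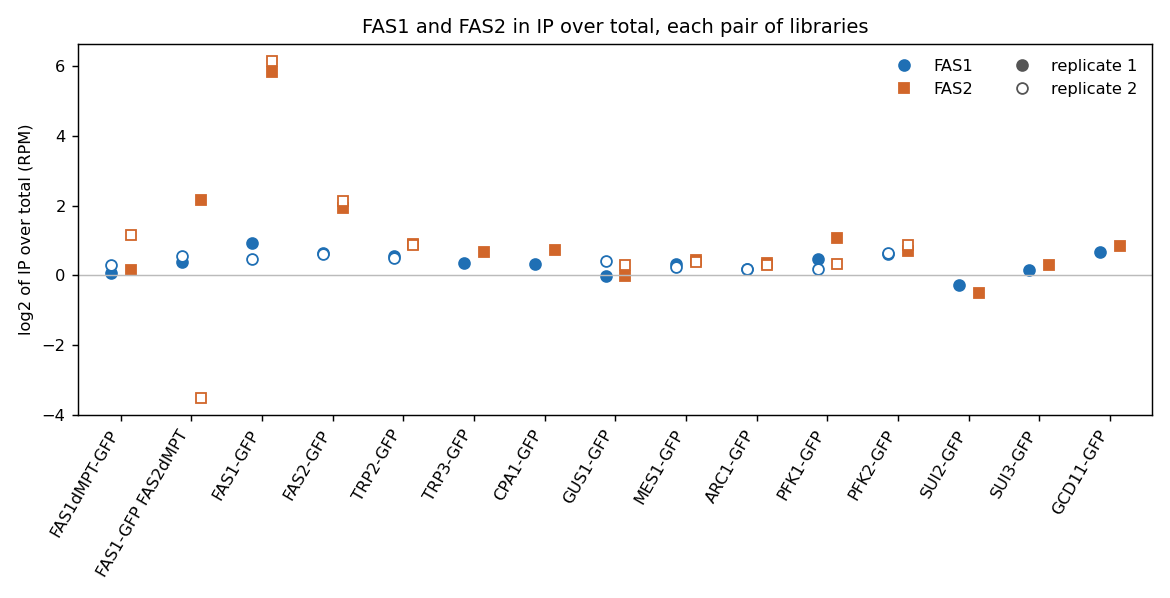
IP over total of FAS1 and FAS2 in each of the 25 pairs, as the log2 of the ratio of RPM values. Filled points are replicate 1 and open points replicate 2. FAS2 in FAS1-GFP stands far above the rest, both pairs of FAS2-GFP and replicate 1 of FAS1-GFP FAS2dMPT come next, and replicate 2 of FAS1-GFP FAS2dMPT lies far below 0.

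With the MPT part of the beta subunit deleted, no excess of FAS2 in the IP passed the test. In FAS1dMPT-GFP IPs FAS2 had 2084 and 3563 RPM, against 1890.05 and 1589 RPM in FAS1dMPT-GFP totals. Its IP over total of 1.10 and 2.24 covered most of the range seen with tags on other complexes, and replicate 2 was above it. The log2 difference was 0.58 ± 0.62 (adjusted p = 0.863, limma). This error is pooled for the gene over all strains of the fit, among them FAS1-GFP FAS2dMPT, whose replicates went opposite ways. FAS1 had 3913 and 5054 RPM in the IPs, against 3708 and 4074 RPM in the totals, a log2 difference of 0.13 ± 0.22 (adjusted p = 0.896, limma). In this comparison limma called 0% of the genes, and 269 had an unadjusted p below 0.05. Over genes, the log2 levels of IP and total correlated at 0.992 and 0.921 in this strain. The values were 0.944 and 0.851 in FAS1-GFP and 0.890 to 0.980 with tags on other complexes. Listed genes made up 91.5% and 81.2% of the reads in FAS1dMPT-GFP IPs, against 37.8% and 57.7% in FAS1-GFP IPs. How well the pull-down worked in each strain was not tested.
The IP over total of FAS2 was lower in FAS1dMPT-GFP than in FAS1-GFP, with a log2 difference of −5.61 ± 0.88 (adjusted p = 0.00497, limma), and 0.0195% of the genes were called in this test of the difference. The call depended on single libraries. It was lost without the replicate 2 pair of FAS1-GFP (−5.32, adjusted p = 0.308), without FAS1-GFP IP 2 (adjusted p = 0.108), without FAS1dMPT-GFP total 1 (adjusted p = 0.0591), without FAS1dMPT-GFP IP 1 (adjusted p = 0.0906) and without further scaling (−4.59, adjusted p = 0.0711), all in limma. Leaving out both libraries of FAS1-GFP FAS2dMPT replicate 2, it was −5.61 with an adjusted p of 4.48e-09. FAS1 differed by −0.76 (adjusted p = 1.00, limma).

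With the amino-terminal MPT part of the alpha subunit deleted, the replicates went opposite ways. In FAS1-GFP FAS2dMPT IPs FAS2 had 613 RPM in replicate 1 and 37.1 RPM in replicate 2, against 138 and 426 RPM in FAS1-GFP FAS2dMPT totals. FAS2 IP over total was 4.45 in replicate 1 and 0.0871 in replicate 2. FAS2 was therefore higher in the IP in one replicate and lower in the other, and the 2 fractions overlapped. The log2 difference was −0.75 ± 0.62 (95% interval −2.02 to 0.53, adjusted p = 0.985, limma), in a comparison that called 0% of the genes, with 90 at an unadjusted p below 0.05. Without replicate 2, in which the library labelled IP had the higher share of reads over genes, the difference was 1.78 (adjusted p = 0.0736, limma). If the labels of that replicate were exchanged, its IP over total would turn to 11.5. Whether they are in order was not tested, so the direction in replicate 2, and with it the size of any change that includes it, is given as labelled. The fractions of replicate 1 also differed in marker genes. Its IP held 82.3 RPM of MATa-specific genes and 9.78 RPM of LYS2, and its total 9.48 and 0.135 RPM. Whether reads of another strain add to FAS2 in that IP was not tested.
FAS1 had 7465 and 6319.9 RPM in the IPs, against 5711 and 4328 RPM in the totals, with an IP over total of 1.31 and 1.46 and a log2 difference of 0.39 ± 0.22 (adjusted p = 0.985, limma). Set against FAS1-GFP, the IP over total of FAS2 was lower in FAS1-GFP FAS2dMPT, with a log2 difference of −6.94 ± 0.88 (adjusted p = 0.000128, limma, with 0.0195% of the genes called). It stayed lower without replicate 2 of FAS1-GFP FAS2dMPT, at −4.42 (adjusted p = 2.72e-05), and without the replicate 2 pair of FAS1-GFP, at −6.65 (adjusted p = 0.0153). The comparisons of both deletion strains with FAS1-GFP share the FAS1-GFP libraries.

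Within each library, the FAS2/FAS1 ratio per length gave the same contrasts. In IPs it was 27.5 and 47.7 in FAS1-GFP and 2.24 and 1.96 in FAS2-GFP, against 0.909 and 0.924 in FAS1-GFP totals and 0.909 and 0.695 in FAS2-GFP totals. In FAS1dMPT-GFP it was 0.469 and 0.621 in IPs, against 0.449 and 0.344 in totals. In FAS1-GFP FAS2dMPT it was 0.0940 and 0.00671 in IPs, against 0.0276 and 0.113 in totals. IPs of the other complexes lay between 0.936 and 1.39 (median 1.10, n = 17), below the IPs of both full-length FAS strains and above all 8 libraries of the deletion strains. Relative to its own total, replicate 1 of FAS1-GFP FAS2dMPT nevertheless gained more, at 1.77 on the log2 scale, than either pair of FAS2-GFP.
The log2 ratio rose between total and IP by 4.92 and 5.69 in the 2 pairs of FAS1-GFP and by 1.30 and 1.498 in those of FAS2-GFP, against −0.23 to 0.61 (mean 0.18 ± 0.20, SD, n = 17) in pairs from other complexes. Relative to these pairs the excess was 5.13 in FAS1-GFP (35.0-fold) and 1.22 in FAS2-GFP (2.33-fold), each with a two-sided exact permutation p of 0.00585 and 0.0117 after adjustment over 8 comparisons. Neither strain overlapped the 17 pairs. The pairs of FAS1dMPT-GFP changed by 0.06 and 0.85 (excess 0.28, two-sided exact permutation p = 0.158, adjusted 0.181). Those of FAS1-GFP FAS2dMPT changed by 1.77 and −4.07 (excess −1.33, p = 0.105, adjusted 0.140, same exact test). With 1 value per strain the excess was 5.13 and 1.23 in FAS1-GFP and FAS2-GFP, and an exact p below 0.0833 was out of reach.

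**Figure D3:**
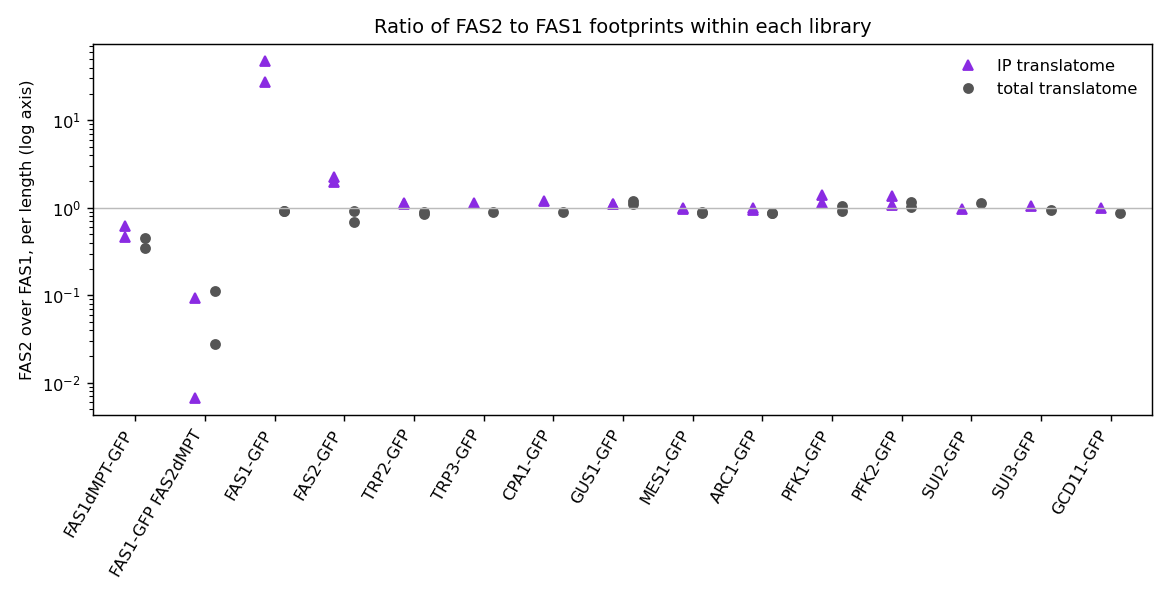
FAS2/FAS1 ratio per length in every library, on a log axis, with IPs as triangles and totals as circles. FAS1-GFP IPs stand at 27.5 and 47.7, FAS2-GFP IPs at 2.24 and 1.96, and YPD totals between 0.695 and 1.19.

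With tags on other complexes, limma called neither subunit in any of the 6 replicated strains. FAS1 and FAS2 were each above the total in 15 of 17 pairs, with a median IP over total of 1.26 for FAS1 and 1.35 for FAS2. On the log2 scale these medians were 0.33 and 0.43, beside a median over all features that was above 0 in all 17 pairs (0.01 to 0.49, median 0.28). FAS1 ranked 2485th and FAS2 1708th by IP over total at the median of the pairs, which ranked a median of 5032 features each. The IP over total of FAS2 was 0.983 and 1.23 in GUS1-GFP, 1.35 and 1.31 in MES1-GFP, 1.28 and 1.22 in ARC1-GFP, 2.10 and 1.24 in PFK1-GFP, 1.61 and 1.84 in PFK2-GFP and 1.86 and 1.84 in TRP2-GFP. It was 1.60 in TRP3-GFP, 1.65 in CPA1-GFP, 0.702 in SUI2-GFP, 1.23 in SUI3-GFP and 1.78 in GCD11-GFP. The pairs below their total were replicate 1 of GUS1-GFP and the pair of SUI2-GFP, for both subunits. The IP over total of FAS1 was 0.983 and 1.34 in GUS1-GFP, 1.24 and 1.18 in MES1-GFP, 1.12 and 1.13 in ARC1-GFP, 1.38 and 1.14 in PFK1-GFP, 1.53 and 1.55 in PFK2-GFP and 1.47 and 1.41 in TRP2-GFP. It was 1.27 in TRP3-GFP, 1.26 in CPA1-GFP, 0.823 in SUI2-GFP, 1.11 in SUI3-GFP and 1.60 in GCD11-GFP. In the replicated strains the log2 differences of both genes lay between −0.20 and 0.52, with FAS1 below 0 in MES1-GFP and ARC1-GFP and FAS2 below 0 in GUS1-GFP and ARC1-GFP, beside called shares of 0.0389% in GUS1-GFP, 0.0779% in MES1-GFP, 0.0195% in ARC1-GFP, 10.5% in PFK2-GFP, 0% in PFK1-GFP (861 genes with an unadjusted p below 0.05) and 4.15% in TRP2-GFP.

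The other genes of fatty acid and phospholipid synthesis were then set beside the 2 subunits in the totals of the deletion strains. Acetyl-CoA carboxylase makes the malonyl-CoA that the synthase uses, OLE1 desaturates its products, and genes with inositol-choline elements in their promoters (the INO1 list) encode enzymes of phospholipid synthesis. Of 16 measured genes of fatty acid synthesis, activation and modification, 2 were higher and 0 lower in FAS1dMPT-GFP totals than in YPD totals (median log2 change 0.25, against −0.02 over all genes tested, of which 6.12% were called). In FAS1-GFP FAS2dMPT totals it was again 2 higher and 0 lower (median −0.05, against −0.04 over all genes, of which 8.01% were called). The called genes were OLE1 and FAA2 in both strains. FAA3 was lower but short of the size needed, at −0.97 (adjusted p = 0.00119, limma) and −0.98 (adjusted p = 0.000599, limma). So were ELO2 (−0.63, adjusted p = 0.00523, limma) and ELO3 (−0.79, adjusted p = 0.00731, limma) in FAS1-GFP FAS2dMPT. Without the YPD totals of FAS-tagged strains, 1 member was called lower in FAS1-GFP FAS2dMPT. With equal totals 3 were higher in FAS1dMPT-GFP (ELO1 added) and 4 in FAS1-GFP FAS2dMPT (ACC1 and ACB1 added), and without further scaling 3 and 2.
OLE1, the fatty acid desaturase, had 974 and 979.6 RPM in FAS1dMPT-GFP totals and 799 and 917 RPM in FAS1-GFP FAS2dMPT totals, against 178 to 390 RPM (median 227) in YPD totals. The log2 changes were 1.68 ± 0.22 (adjusted p = 1.83e-05, limma) and 1.48 ± 0.22 (adjusted p = 3.67e-05, limma), and no deletion-strain total overlapped the YPD totals. FAA2, an acyl-CoA synthetase that activates fatty acids, had 28.8 and 31.5 RPM in FAS1dMPT-GFP totals and 23.2 and 36.8 RPM in FAS1-GFP FAS2dMPT totals, against 1.89 to 9.24 RPM (median 3.74) in YPD totals. It rose by 2.29 ± 0.36 (adjusted p = 0.000157, limma) and 2.25 ± 0.36 (adjusted p = 0.000117, limma). ACC1, acetyl-CoA carboxylase, had 2925 and 3048 RPM in FAS1dMPT-GFP totals and 4182 and 4165 RPM in FAS1-GFP FAS2dMPT totals, against 1624 to 3531 RPM (median 1940.5) in YPD totals. Its log2 differences were 0.23 (adjusted p = 0.323, limma) and 0.71 ± 0.15 (adjusted p = 0.00126, limma), the second short of the size needed for a call, which it reached with equal totals.

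**Figure D4:**
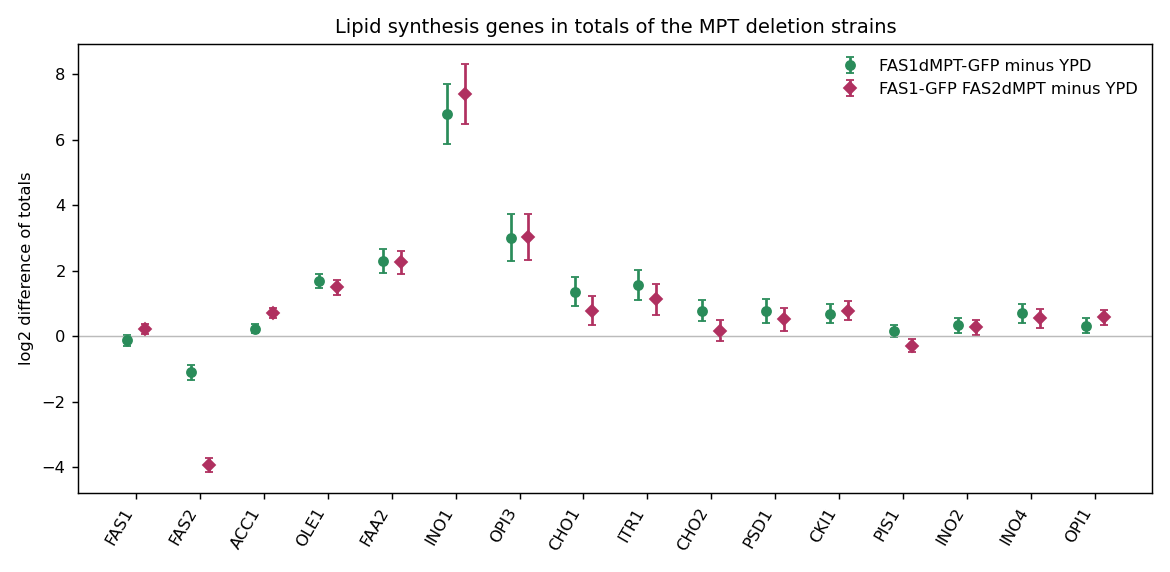
Differences in totals of FAS1dMPT-GFP and FAS1-GFP FAS2dMPT from YPD totals for FAS1, FAS2 and the other named lipid genes, in log2(scaled RPM + 1), with the standard error from limma as bars. FAS2 lies below 0 in both strains, and INO1, OPI3, FAA2 and OLE1 lie above it.

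Some genes of the inositol-choline list were higher as well. Of its 8 measured members, 4 were higher and 0 lower in FAS1dMPT-GFP totals (median log2 change 1.07, against −0.02 over all genes, of which 6.12% were called). In FAS1-GFP FAS2dMPT totals 2 were higher and 0 lower (median 0.78, against −0.04 over all genes, of which 8.01% were called). INO1, which makes inositol phosphate from glucose 6-phosphate, had 347 and 549.8 RPM in FAS1dMPT-GFP totals and 690 and 651 RPM in FAS1-GFP FAS2dMPT totals, against 0.547 to 52.4 RPM (median 1.62) in YPD totals. It rose by 6.77 ± 0.91 (adjusted p = 3.01e-05, limma) and 7.38 ± 0.91 (adjusted p = 4.65e-06, limma). OPI3, a methyltransferase of phosphatidylcholine synthesis, had 288 and 325 RPM in FAS1dMPT-GFP totals and 334 and 290.3 RPM in FAS1-GFP FAS2dMPT totals, against 17.2 to 313 RPM (median 23.4) in YPD totals. It rose by 3.01 ± 0.70 (adjusted p = 0.00541, limma) and 3.03 ± 0.70 (adjusted p = 0.00306, limma).
CHO1, phosphatidylserine synthase, rose in FAS1dMPT-GFP totals by 1.36 ± 0.43 (adjusted p = 0.0346, limma), as did ITR1, an inositol transporter, by 1.55 ± 0.46 (adjusted p = 0.0231, limma). In FAS1-GFP FAS2dMPT totals the differences were 0.78 for CHO1 (adjusted p = 0.214, limma) and 1.12 for ITR1 (adjusted p = 0.0816, limma). A single YPD total, FAS1-GFP total 2, was the highest of the 17 for INO1 (52.4 RPM, followed by 5.20 RPM), OPI3 (313, followed by 49.7), CHO1 (341, followed by 131) and ITR1 (439, followed by 278). It was the total whose IP did not match it in the marker genes, and its part in these differences was not tested beyond leaving out the YPD totals of FAS-tagged strains, after which 4 and 3 members of the list were higher.
In either strain the number of called members depended on single libraries: without either FAS1dMPT-GFP total, or without FAS1-GFP FAS2dMPT total 1, only INO1 of the list was still called. With equal totals it was 5 members in FAS1dMPT-GFP and 4 in FAS1-GFP FAS2dMPT, and without further scaling 7 and 2.

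No regulator of these genes passed the call rule. Of 9 measured regulators of fatty acid and phospholipid synthesis, none was called in either strain (median log2 change −0.02 in FAS1dMPT-GFP and 0.27 in FAS1-GFP FAS2dMPT), where 6.12% and 8.01% of all genes were called. At such shares a list of this length can hold no call without standing apart from the other genes. INO2 and INO4, the activators that bind inositol-choline elements, differed by 0.32 (adjusted p = 0.359, limma) and 0.70 (adjusted p = 0.107, limma) in FAS1dMPT-GFP totals, and by 0.27 (adjusted p = 0.438, limma) and 0.54 (adjusted p = 0.200, limma) in FAS1-GFP FAS2dMPT totals. OPI1, their repressor, differed by 0.32 (adjusted p = 0.399, limma) and 0.57 (adjusted p = 0.0893, limma) in the same 2 strains. RAP1 was lower by the adjusted p but short of the size needed in both strains. It differed by −0.37 (adjusted p = 0.0261, limma) in FAS1dMPT-GFP and −0.46 (adjusted p = 0.00415, limma) in FAS1-GFP FAS2dMPT. So was REB1 in FAS1-GFP FAS2dMPT, at −0.44 (adjusted p = 0.00975, limma). With both other scalings INO4 was called as higher in FAS1dMPT-GFP. The 7 genes of the separate mitochondrial fatty acid synthase held no call either (medians −0.14 and 0.34), beside the same shares over all genes. In SD-trp totals and in the comparison of FAS tags with other tags, no member of these 4 lists was called.

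Across the 17 YPD totals, FAS1 and FAS2 followed each other only loosely. The correlation of their log2 levels was 0.596, which placed FAS2 33rd among 2005 features by likeness to FAS1 and FAS1 28th by likeness to FAS2. Nearest to FAS1 were ARO1 (r = 0.850), a protein of aromatic amino acid synthesis, PEP5 (0.737), a vacuolar protein sorting factor, ARG7 (0.736), an enzyme of arginine synthesis, SEC21 (0.727), a coatomer subunit, and SEC10 (0.719), an exocyst subunit. Nearest to FAS2 were PYC2 (0.832), a pyruvate carboxylase, ACO1 (0.826), aconitase, MUP1 (0.818), a methionine permease, GLT1 (0.778), glutamate synthase, and HNM1 (0.768), a choline transporter. ACC1 was 6th for FAS1 (0.716) and 11th for FAS2 (0.669). These values describe 17 libraries that differ in depth (1.74 to 55.9 M reads), in table layout and, in part, in strain. Several of the genes share great length with the subunits (ARO1 spans 4767 nt and GLT1 6438 nt, against a median of 1378.5 nt).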

How the data were processed

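The deposited values per gene were taken as RPM (reads of a gene per 1000000 reads) made by the authors, from their sums over genes in each library. Per the submitters' processing notes, cutadapt 1.8.3 was among the tools. Which aligner and build were used, how reads were counted and whether strand was used is not given in the sources used here. Since RPM are not counts, and whole reads could be recovered for only 60.2% to 87.1% of low values (below 100 steps, within 0.01 of a step), limma was used, not a count test.

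The 28 mitochondrial features were left out, and RPM were recomputed over the 6577 nuclear ones, of which 5919 matched a gene of the RefSeq R64 annotation. Libraries were scaled by an unweighted trimmed mean of log ratios (trimming 0.3 of ratios and 0.05 of levels at either end). limma 3.58.1 in R 4.3.3 was fitted with a mean-dependent prior to log2(scaled RPM + 1) of genes averaging 5 RPM or more, over the 40 libraries of replicated strains for IPs and the totals for totals. Calls needed a Benjamini-Hochberg adjusted p below 0.05 over all genes and a log2 change of at least 1. Errors are standard errors unless SD is written. In a limma fit the residual spread of a gene was pooled over all its groups, so an error is not the spread of the tested strain alone. The log2 FAS2/FAS1 ratio was tested by exact permutation in Python 3.11.15 (scipy 1.17.1 and matplotlib 3.10.9 were also used). Likeness is Pearson's r over features averaging 50 RPM or more. Beside both subunits, named genes were the 2 called members of each list with the largest and the 2 with the smallest change, ACC1, INO2, INO4 and OPI1, and the 5 genes most like each subunit. List members with an adjusted p below 0.05 that were short of the size needed were named as well, after their values were seen.

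The limma fits did not pair IP and total by replicate number. Values of IP over total and the permutation test of the ratio between IP and total did set libraries of the same strain and number side by side, although no label says that such libraries share a culture. The steps were checked on simulated data. Tables of mixed fractions and positions along transcripts were not analysed here. The subunits and gene lists were chosen with earlier results of these data known. Intervals and read numbers cover counting and library spread only. Leaving out TRP2-GFP or the replicate 2 pair of FAS1-GFP or FAS2-GFP, using YPD totals of 1 table layout, and the alternatives for the gene lists were chosen after seeing the data.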

Additional observations from a re-analysis of the deposited data

Results flagged for a closer look

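In the 4 YPD totals of strains with a FAS tag, 1 library lay far from the others in the FAS2/FAS1 ratio on RPM: FAS2-GFP total 2 had 0.640, and the others had 0.836, 0.837 and 0.850. The gap to its neighbour was 0.935 of the whole range. Chance flags about 1 in 20 groups in this way.

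The IP over total of FAS2 differed between strains in tests of the difference itself. In FAS1-GFP it exceeded that of strains with tags on other complexes by 5.95 on the log2 scale (adjusted p = 1.44e-05, limma). It was lower than in FAS1-GFP in both deletion strains, with log2 differences of −5.61 in FAS1dMPT-GFP (adjusted p = 0.00497, limma) and −6.94 in FAS1-GFP FAS2dMPT (adjusted p = 0.000128, limma). The first was not called under 5 alternatives, among them the fit without the FAS1-GFP replicate 2 pair (−5.32, adjusted p = 0.308), and the second was −4.42 without the doubted replicate 2 of FAS1-GFP FAS2dMPT.

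The log2 FAS2/FAS1 ratio rose more between total and IP than in the 17 pairs of other complexes, by 5.13 in FAS1-GFP and by 1.22 in FAS2-GFP. Both had an adjusted p of 0.0117 in the two-sided exact permutation test and both pairs of each strain lay above all 17.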

How the results depend on the processing

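In FAS1-GFP, the excess of FAS2 in IPs passed under all alternatives run (5.09 to 6.66), as did the lower FAS2 in FAS1-GFP FAS2dMPT totals (−4.61 to −3.27). Without further scaling the median of all genes moved by −1.08 in the FAS1-GFP and −0.54 in the FAS2-GFP IP comparison, and with equal totals by −0.21 and 0.35. In totals it stood at 0.42 and 0.30 for FAS1dMPT-GFP and 0.24 and 0.29 for FAS1-GFP FAS2dMPT. Signs and calls below follow these shifts in part, and the cause was not tested further.

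Without further scaling, FAS1 in IP minus total was −0.21 in FAS1-GFP, −0.27 in FAS2-GFP, −0.25 in GUS1-GFP and −0.081 in PFK1-GFP, and FAS2 in MES1-GFP −0.39. Against other complexes FAS1 was −0.092 in FAS1-GFP and −0.14 in FAS2-GFP. The change against FAS1-GFP was 0.26 and 0.47 for FAS1 in FAS1dMPT-GFP and FAS1-GFP FAS2dMPT, and −4.59 for FAS2 in FAS1dMPT-GFP. In totals FAS1 was 0.33 and FAS2 −0.64 in FAS1dMPT-GFP, and FAS2 0.13 with a FAS tag. With equal totals, FAS2 was 0.14 in GUS1-GFP, FAS1 0.28 in MES1-GFP, and FAS1 and FAS2 0.18 and 0.32 in ARC1-GFP. FAS1 in FAS1dMPT-GFP was −0.16 against other complexes and 0.20 in totals, where FAS2 was −0.77, and FAS2 with a FAS tag was 0.13.

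FAS2 in FAS2-GFP IPs (1.68) passed with library weights (adjusted p = 0.0161), with a replicate block (adjusted p = 0.0440) and without both libraries of FAS1-GFP FAS2dMPT replicate 2 (adjusted p = 0.0195), all in limma. The block changed no other call of either subunit. Deviations of IP and total with the same number correlated between −0.0365 (ARC1-GFP) and 0.864 (GUS1-GFP), so the numbers were not taken as pairing in the limma fits, though above 0.1 in the other 9 strains. Without both FAS1-GFP FAS2dMPT replicate 2 libraries, FAS2 was 1.78 in IP minus total and 1.53 against other complexes, and FAS1 −0.043. Without the replicate 2 pair of FAS1-GFP the FAS2 change in FAS1dMPT-GFP was −5.32 (adjusted p = 0.308). With 1 value per strain the ratio differences were −0.98, −4.17, 5.13 and 1.23, and with YPD totals of 1 layout −1.10 and −4.30, in designs that cannot pass after adjustment.

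Leaving out 1 library at a time, FAS2 in FAS1-GFP FAS2dMPT ranged from −2.60 (without IP 1, adjusted p = 0.00811) to 1.11 (without IP 2) in IP minus total, and from −2.85 (without IP 1, adjusted p = 0.00455) to 0.87 against other complexes. The FAS2 change in FAS1dMPT-GFP ranged from −6.07 to −5.15, and its totals difference from −1.25 to −0.97. FAS2 against other complexes in FAS1dMPT-GFP ranged from −0.015 to 0.69, FAS2 in GUS1-GFP from −0.27 to 0.27, and FAS2 with a FAS tag from −0.18 to 0.10. FAS1 against other complexes ranged from −0.016 to 0.68 in FAS1-GFP FAS2dMPT and from −0.086 to 0.22 in FAS1dMPT-GFP. FAS1 in IP minus total ranged from −0.026 to 0.28 in FAS1dMPT-GFP, from −0.27 to 0.39 in GUS1-GFP and from −0.0075 to 0.32 in PFK1-GFP, and in FAS1-GFP FAS2dMPT totals from −0.12 to 0.56. Ratio differences ranged from −1.17 to −0.78 (FAS1dMPT-GFP) and −5.18 to −3.16 (FAS1-GFP FAS2dMPT) in totals. Between IP and total they ranged from 4.75 to 5.51 in FAS1-GFP, 1.12 to 1.32 in FAS2-GFP, −0.11 to 0.68 in FAS1dMPT-GFP and −4.25 to 1.59 in FAS1-GFP FAS2dMPT.

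Numbers of called genes moved widely: 1 to 2549 in FAS1-GFP, 0 to 952 in FAS2-GFP, 0 to 119 in FAS1dMPT-GFP and 0 to 67 in FAS1-GFP FAS2dMPT IPs. They were 1 to 356 and 0 to 20 for FAS1-GFP and FAS2-GFP against other complexes, 0 to 12 and 1 to 16 for the changes in FAS1dMPT-GFP and FAS1-GFP FAS2dMPT, 63 to 635 and 228 to 552 in their totals, 0 to 47 in SD-trp and 0 to 32 with a FAS tag. Count tests were not run, since the values are RPM, and the planned look at promoter and protein sequences was not run. In the main fit a FAS2 difference of 1.68 in FAS2-GFP IPs was not called, at an SE of 0.62. It was called without both libraries of FAS1-GFP FAS2dMPT replicate 2.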
